A study of Homo sapiens with 4 samples.

Results

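The 8 genes SLC4A1, EPB42, EPB41, ANK1, SPTB, GYPB, GYPC and GYPE encode proteins of the red cell membrane and of the skeleton beneath it. They were taken from a list of gene names, and all 8 were found among 20037 protein-coding genes of the annotation. H3K27ac is a histone mark (acetyl on lysine 27 of H3) found at promoters and enhancers in use. It had been mapped by ChIP-seq in K562, a human erythroleukaemia line from a patient with chronic myeloid leukaemia. Cells of 1 library were kept for 18 h with 1 uM daunorubicin, an anthracycline that poisons topoisomerase II, and those of the other were left untreated. Each had an input library made without antibody. The cells were a single line with no genetic change named in the labels, and with 1 library per condition no difference below has a replicate check or a test.

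In the red cell, a mesh of spectrin lies under the lipid bilayer and gives the cell its shape and its resistance to shear. The mesh is held to the bilayer at ankyrin, which grips the anion exchanger that SLC4A1 encodes, and at junctions where the EPB41 protein ties spectrin and actin to glycophorin C. Loss of these links is known from hereditary spherocytosis and elliptocytosis, in which red cells lose membrane or shape. K562 cells carry an incomplete erythroid programme, so several of these genes can be active in them.

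Peaks were taken, on hg38, from each gene's span extended by 50 kb at both ends. The marked length is the number of base pairs in that window under peaks. It was longer with daunorubicin at 8 of the 8 genes, where 87.4% of all protein-coding genes marked in either library were longer too. The count therefore stood near the background. Over the merged windows, 99 daunorubicin and 61 untreated peaks covered 91774 bp and 59498 bp, a ratio of 1.54. Over the whole lists the covered length had a ratio of 1.59.

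The genes differed widely among themselves. EPB42 had the largest ratio, 2.37, from 6357 bp in the treated and 2677 bp in the untreated library. GYPC had the smallest, with 5559 bp against 4948 bp (1.12). EPB41 had the largest difference in base pairs, 23998 bp against 14530 bp (1.65). SPTB (9921 bp against 5915 bp) and GYPB (8273 bp against 4906 bp) had ratios of 1.68 and 1.69. GYPE had 8933 bp against 5975 bp (1.50), ANK1 15397 bp against 10868 bp (1.42) and SLC4A1 13336 bp against 9679 bp (1.38).

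**Figure D1:**
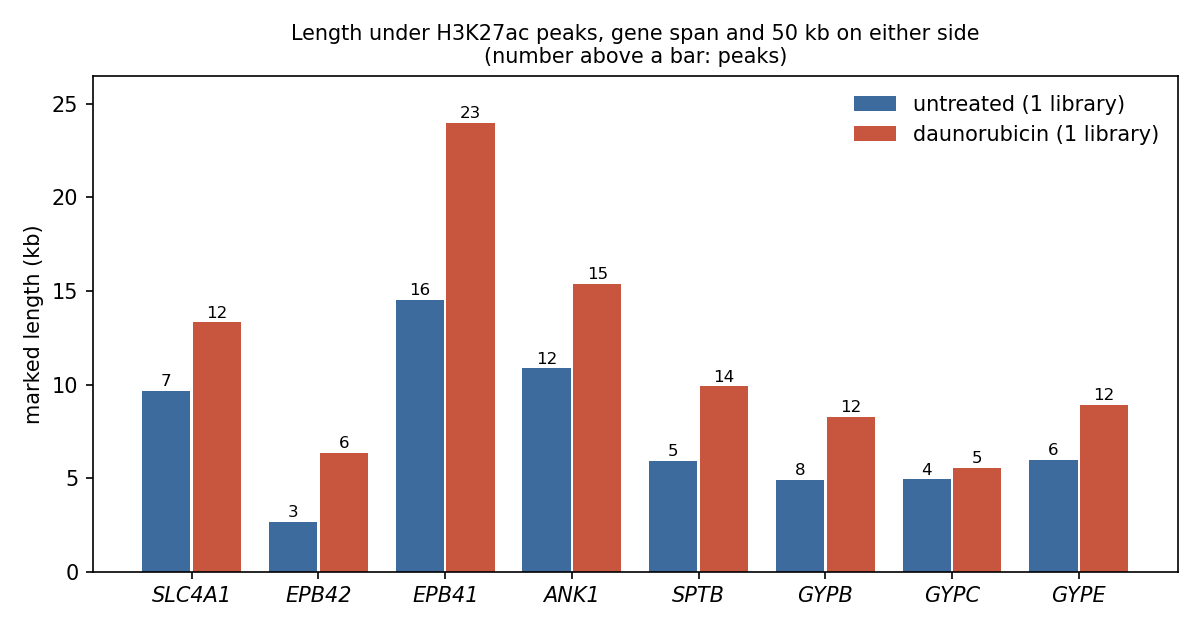
Marked length (kb) in the span of each gene and 50 kb on either side, for the untreated library (blue) and the daunorubicin library (red). The number above each bar is the count of peaks, and the red bar is the taller at all 8 genes, by the least at GYPC.

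The median difference of the 8 genes was 3668.5 bp, and 7 of them lay above the upper quartile of all marked genes, 2703 bp. The median of all marked genes was 1312 bp. The windows of EPB41, ANK1 and SPTB, at 332942 bp, 343517 bp and 233625 bp, were much longer than the median window of 124104 bp. A longer window can hold more peaks. SLC4A1, EPB42, GYPB and GYPE had windows of 119746 bp to 134696 bp, near that median. Their differences, 2958 bp to 3680 bp, also lay above the upper quartile. The part of window length in these differences was not tested. As a share of its window, marking ran from 3.96% at GYPC to 11.1% at SLC4A1 with daunorubicin, against a median of 3.73% over all protein-coding genes. Without the drug it ran from 2.08% at EPB42 to 8.08% at SLC4A1, against 2.48%. The median ratio was 1.57 for the 8 genes and 1.34 for all genes marked in both libraries.

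Merging the peaks of both libraries gave 100 regions, of which 55 were called in both, 40 only with daunorubicin and 5 only without it. All 8 genes had at least 1 region called only with daunorubicin, as did 74.0% of all protein-coding genes. Regions called only without it were found at EPB41, ANK1, GYPC and GYPE, 4 of the 8, against 30.1% of all genes. Of the daunorubicin peaks, 40.4% (95% Wilson interval 31.3 to 50.3, counting error only) were overlapped by no untreated peak, beside 46.3% over the whole list. Untreated peaks without a daunorubicin partner made up 8.20% (3.55 to 17.8), beside 10.7%.

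Regions were split by position. A region was placed at a gene end if it lay within 1 kb of either outer end of any annotated gene, and otherwise counted as distal. Start sites inside a gene therefore count as distal here, as did the EPB42 start site described below. All 6 regions at ends of the 8 genes were called in both libraries, which rests on the 1 kb limit. The strongest unshared daunorubicin peak (score 122) lay 1217 bp from the lower end of SLC4A1 and counts as distal. Another (score 40) lay 1899 bp from the lower end of GYPC. With a limit of 2.5 kb both would count as gene-end regions called only with daunorubicin. Distal regions numbered 38 of the 55 called in both libraries (69.1%), 39 of the 40 called only with daunorubicin (97.5%) and 4 of the 5 called only without it (80.0%). Over the whole lists these shares were 58.5%, 87.6% and 86.4%, so unshared regions were mostly distal everywhere. Ends of neighbouring genes held 11 regions in both and 1 in each library alone. Of the 40 peaks called only with daunorubicin, 27 lay inside the gene spans and 13 in the flanks.

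**Figure D2:**
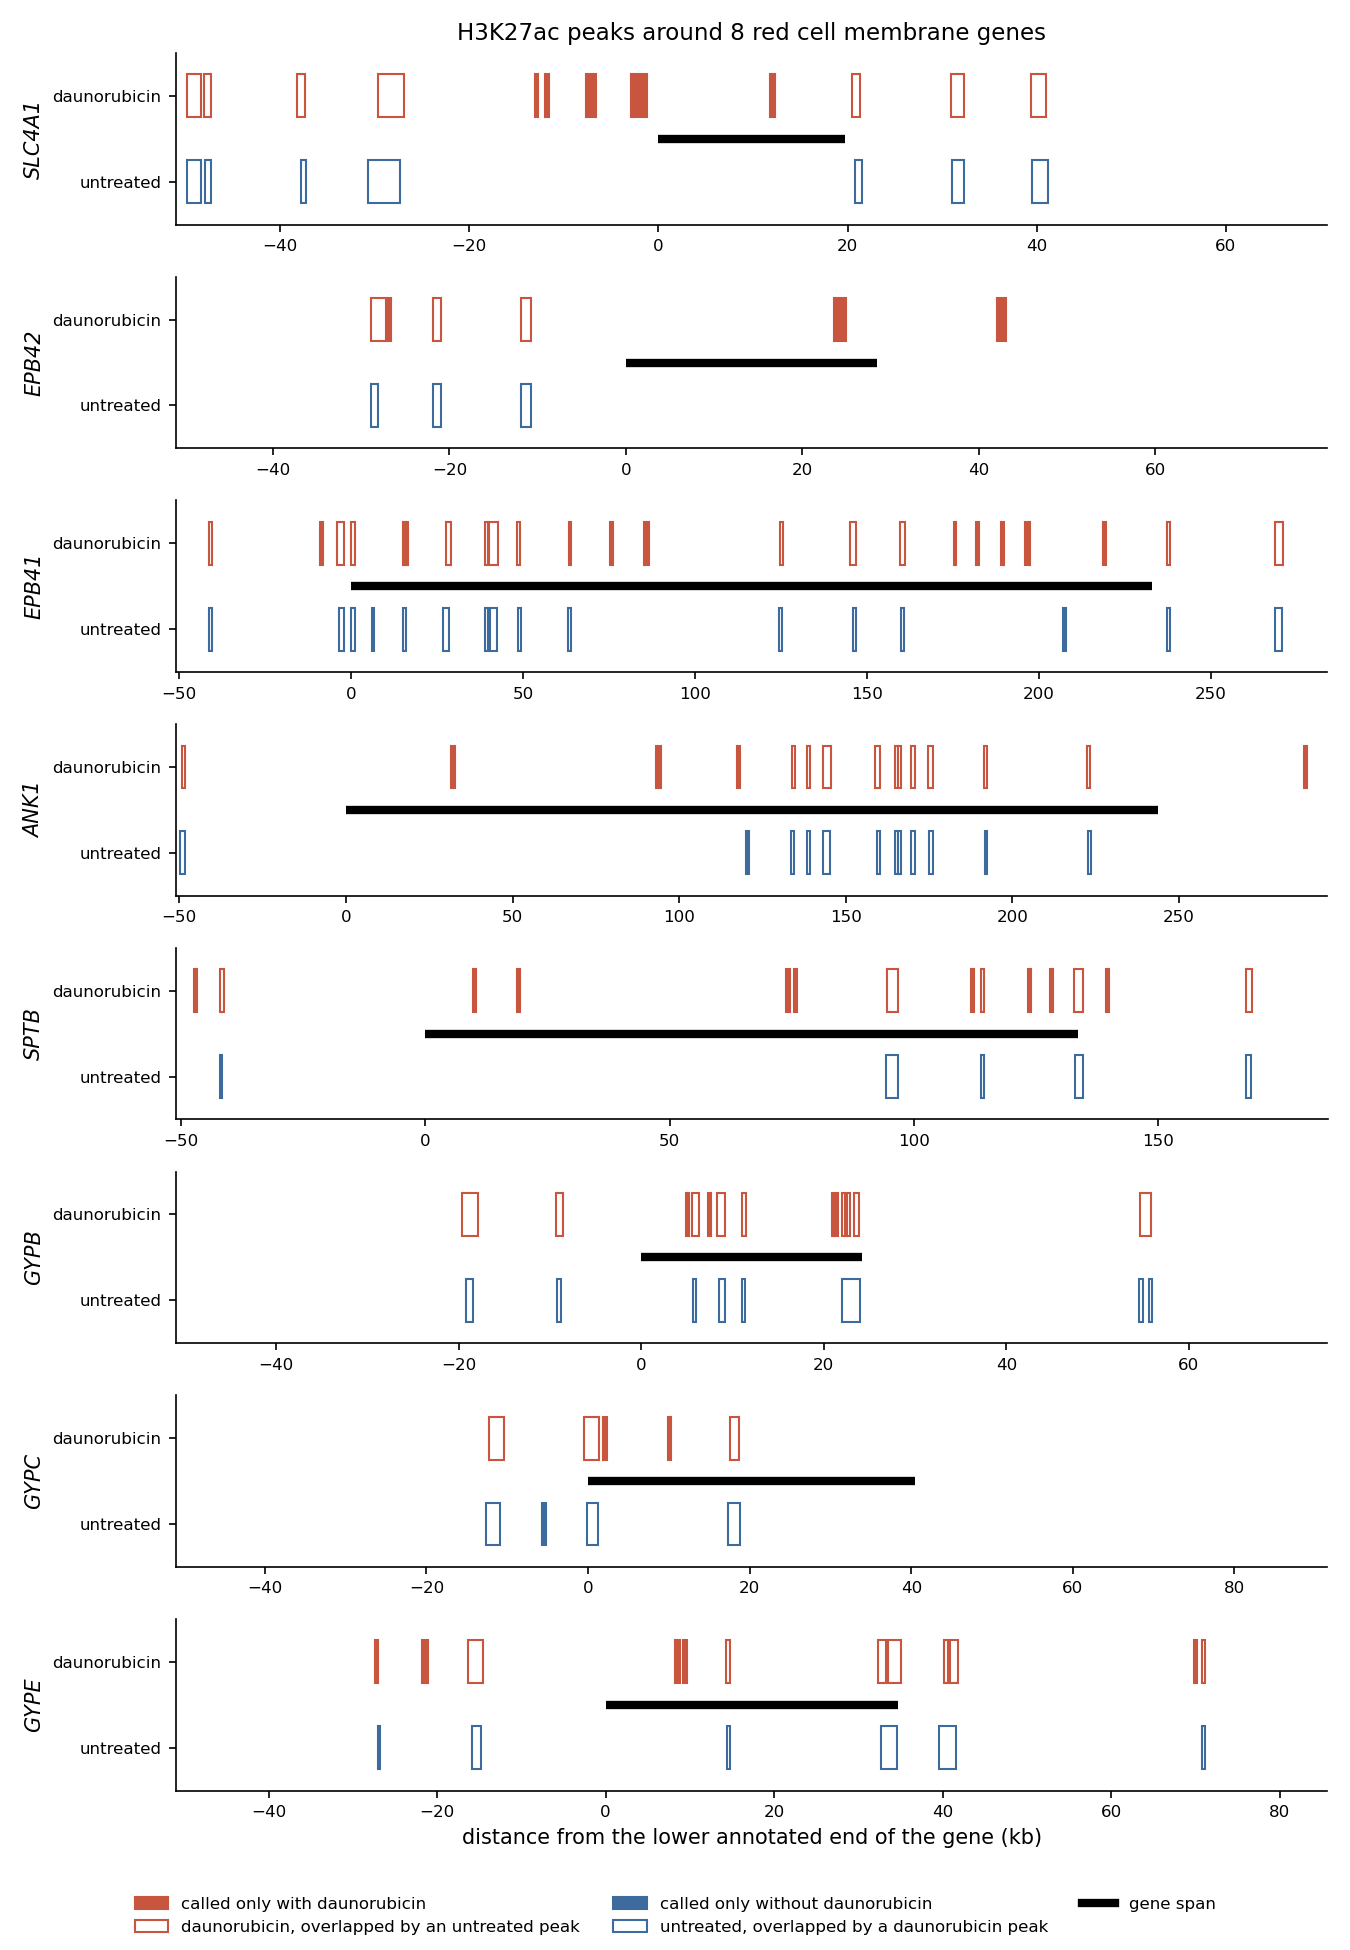
Peaks of the daunorubicin library (red, upper row) and the untreated library (blue, lower row) by distance (kb) from the lower annotated end of each gene, with the gene span as a black bar and very narrow peaks widened to be visible. Filled boxes were called in 1 library only, and most of the 40 filled red boxes lie inside the spans or flanks away from the ends of the bar.

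These peaks were mostly weak and narrow. The score of a peak is the authors' own value and is read only within its list. Peaks called only with daunorubicin had a median score of 28.5 and a median width of 418 bp, and 8 of the 40 exceeded the median score of the whole daunorubicin list, 41. Shared daunorubicin peaks at the same genes had medians of 72 and 1035 bp. Over the whole list, the median score of unshared daunorubicin peaks was 26. The 5 untreated peaks without a partner scored 13 to 28.

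**Figure D3:**
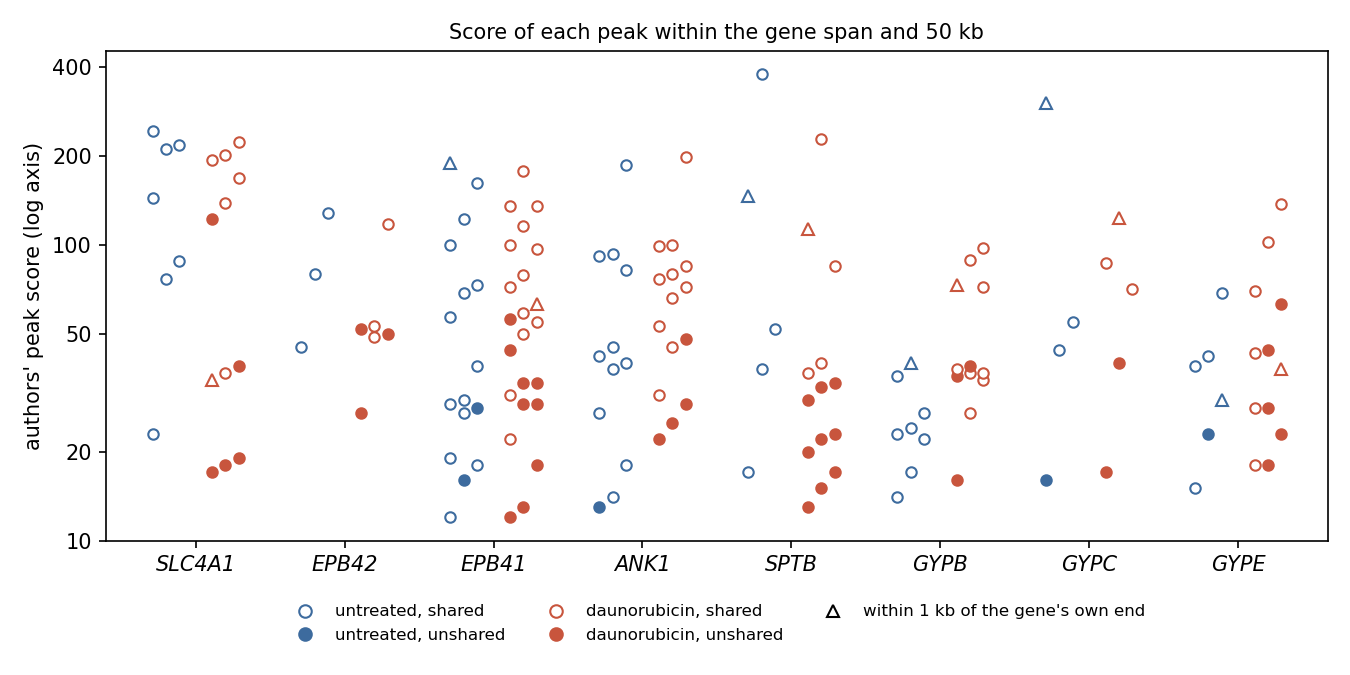
Authors' peak score (log axis) of every peak in the window of each gene, untreated in blue and daunorubicin in red, with filled symbols for peaks called in 1 library only and triangles for peaks within 1 kb of an end of the gene itself. Filled red symbols mostly lie below the open ones, and the highest of them, 122, is at SLC4A1. Scores of the separate lists may differ in scale.

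An outer end was marked in both libraries at 5 of the 8 genes (EPB41, SPTB, GYPB, GYPC and GYPE), beside 57.6% of all protein-coding genes. SLC4A1 was marked only with daunorubicin, as were 4.91% of all genes, and EPB42 and ANK1 had no peak at an end in either library. The call at SLC4A1 rested on the 1 kb limit, and with 2.5 kb its end was marked in both, giving 6 of the 8. The share over all genes at 2.5 kb is not given, and the 57.6% holds for 1 kb only. The daunorubicin peak (44268899 to 44269742) lay 764 bp from the higher end and the untreated peak that overlapped it (44269174 to 44269915) lay 1039 bp from it.

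Start sites inside a gene are missed by its outer ends, so promoter windows of RefSeq (GRCh38.p14), from 250 bases before to 50 after a start site, were also used. They were at hand for 6 of the 8 genes, in 9 windows, and were missing for SLC4A1 and ANK1. A peak overlapped the window in both libraries at 4 of the 9 (both EPB41 windows, GYPC and the outer SPTB window), beside 39.1% of all 35116 windows. The windows of EPB42 and GYPE were overlapped only with daunorubicin, 2 of 9 beside 3.84%. Both GYPB windows, which largely overlap each other, and the inner SPTB window were overlapped in neither library, 3 of 9 beside 55.7%.

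The 250 bases before the start site are shown for the EPB42 promoter, where the marking differed between the libraries. The outer SPTB and the GYPC promoters stand beside it as promoters marked in both. Capitals mark matches, on either strand, to AGATAA or AGATAG and to TGATAA or TGATAG, the core that GATA factors are known to bind. EPB42 (chr15:43221019-43221268, minus strand), SPTB (chr14:64879908-64880157, minus strand) and GYPC (chr2:126655908-126656157, plus strand) read, 5′ to 3′:
EPB42: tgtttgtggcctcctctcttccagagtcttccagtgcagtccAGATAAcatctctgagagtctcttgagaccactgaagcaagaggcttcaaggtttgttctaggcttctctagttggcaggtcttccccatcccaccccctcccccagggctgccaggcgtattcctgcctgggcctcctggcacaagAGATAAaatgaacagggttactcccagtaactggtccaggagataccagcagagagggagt
SPTB: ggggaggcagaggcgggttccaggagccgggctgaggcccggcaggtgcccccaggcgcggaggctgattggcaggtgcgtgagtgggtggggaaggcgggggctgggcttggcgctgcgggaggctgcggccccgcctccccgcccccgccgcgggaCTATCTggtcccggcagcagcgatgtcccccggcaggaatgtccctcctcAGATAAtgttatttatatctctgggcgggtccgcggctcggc
GYPC: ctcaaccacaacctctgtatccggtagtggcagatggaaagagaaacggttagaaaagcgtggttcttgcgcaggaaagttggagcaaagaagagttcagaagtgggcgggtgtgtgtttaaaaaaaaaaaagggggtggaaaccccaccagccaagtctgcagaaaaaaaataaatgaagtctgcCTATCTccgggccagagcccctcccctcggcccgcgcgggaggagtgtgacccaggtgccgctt

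The EPB42 sequence held 2 of these matches, which began 208 and 61 bases before the start. SPTB held 2, at 92 and 42 bases, and GYPC held 1, at 64 bases. Of the 9 windows, 7 had a match in those 250 bases, at least 1 for each of the 6 genes, and 22.3% of all promoters did. The windows are not independent, since those of GYPB overlap and GYPE is a near copy. Among all promoters the share was 11.9% where both libraries had a peak, 24.3% where only daunorubicin did, 13.7% where only the untreated library did and 29.7% where neither did. The median GC content was 66.4%, 57.2% and 64.8% in the first 3 of these classes. CCNCNCCC, a pattern of KLF and SP factors, was found in 6 of the 9 and in 53.4% of all, and its matches can overlap one another. CCACACCC and TGANTCA were found in none of the 9, beside 2.97% and 6.57% of all promoters. A match is a string of letters and not a measured binding site.

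SLC4A1, on chromosome 17 from 44248390 to 44268135, encodes the chloride and bicarbonate exchanger that is also the main anchor of ankyrin in the membrane. Its window held 12 daunorubicin and 7 untreated peaks, and all 7 untreated peaks had a partner. Of the 5 peaks called only with daunorubicin, 4 lay below the lower end and 1 inside the gene. The strongest, at 44245534 to 44247173, was 1640 bp wide with a score of 122, at percentile 84.8 of its list. It lay 1217 bp below the lower end, and the nearest untreated peak was 22001 bp away. Among all unshared daunorubicin peaks its score stood at percentile 99.7. Next to it were peaks at 44240785 to 44241774 (score 39), 44236391 to 44236783 (18) and 44235369 to 44235576 (19). The single peak inside the gene, at 44260186 to 44260700, scored 17. Above the higher end, peaks at 44279372 to 44280743 (194) and 44287759 to 44289371 (168) had untreated partners scored 88 and 144. Inside the SLC4A1 span the untreated library had no peak. With equal numbers of the highest-scoring peaks from each list, SLC4A1 had 12220 bp against 9679 bp and 2 unshared daunorubicin peaks. With a score of at least 43 the difference was 617 bp.

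EPB42, on chromosome 15 from 43197227 to 43225737, encodes a transglutaminase-like protein without enzyme activity that binds the anion exchanger and ankyrin. Its window held 6 daunorubicin and 3 untreated peaks, and the span itself held 1 and 0. The 1 peak inside the span, at 43220861 to 43222148, covered the start site at 43221018 whose upstream sequence is shown above. It was 1288 bp wide with a score of 50, at percentile 58.6 of its list. The nearest untreated peak lay 34444 bp away. A second unshared peak, at 43239302 to 43240310 (score 52), lay 13565 bp above the higher end. The third, at 43170248 to 43170606 (score 27), lay 1091 bp from an untreated peak. The 3 shared peaks all lay below the gene, the strongest at ends of neighbouring genes (scores 118 and 128). That peak stood at percentile 84.1 of the daunorubicin list and 76.2 of the untreated list. With equal numbers of peaks EPB42 had 5998 bp against 2677 bp, and the peak at its start site stayed unshared. With a flank of 10 kb that peak made the whole difference, 1288 bp.

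ANK1, on chromosome 8 from 41653225 to 41896741, encodes the ankyrin that ties beta spectrin to the anion exchanger. It had 15 daunorubicin and 12 untreated peaks, none of them within 1 kb of its own ends. No promoter window was at hand for ANK1, so marking at start sites inside the gene was not read. The widest ANK1 peak of each list was shared, at 41796497 to 41798724 with daunorubicin (2228 bp, score 85) and 2326 bp wide without it (score 92). Its score stood at percentile 75.8 of the daunorubicin list and 70.0 of the untreated list. Shared marking was packed into a stretch of the span from 41786983 to 41845632 with a further shared region at 41875848 to 41876489 and another in the flank, 48139 bp below the gene. The strongest ANK1 peak of each list was the same region, at 41827996 to 41829239 with daunorubicin (score 199) and 41828052 to 41829272 without it (186). Only with daunorubicin, peaks were called towards the lower end of the gene at 41684896 to 41686038 (score 22), 41746371 to 41747823 (48) and 41770628 to 41771163 (25). The untreated library had 1 peak there, at 41773453 to 41773773 with a score of 13, which lay 2290 bp from the nearest daunorubicin peak. The remaining unshared daunorubicin peak, at 41940714 to 41941405, lay 43973 bp above the gene. ANK1 had, with equal numbers of peaks, 12648 bp against 10868 bp, with 1 unshared daunorubicin and 2 unshared untreated peaks.

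SPTB, on chromosome 14 from 64746283 to 64879907, encodes the red cell beta spectrin, which binds ankyrin and actin. Its window had 14 daunorubicin peaks and 5 untreated ones, and all 5 had a partner. The promoter peak was 1794 bp wide with daunorubicin (64879124 to 64880917, score 113) and 1747 bp without it (64879153 to 64880899, score 147). These scores stood at percentile 83.1 of the daunorubicin list and 78.8 of the untreated list, the other way round from the raw scores. The other strong shared peak inside SPTB, at 64840866 to 64842982, scored 85 and its untreated partner 52. The 9 unshared daunorubicin peaks scored 13 to 34, all below the list median, and 7 of them lay in the span. With equal numbers of peaks 1 of the 9 was left, and the marked length was 6432 bp against 5915 bp. With a score of at least 43 the difference was 69 bp. The inner start site of SPTB, at 64823380, lay 1213 bp from a daunorubicin peak of score 13 and 17255 bp from the nearest untreated peak.

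EPB41, on chromosome 1 from 28887100 to 29120041, encodes the junction protein that strengthens the binding of spectrin to actin. It had 23 daunorubicin and 16 untreated peaks, of which 18 and 12 lay in the span. The promoter windows of both annotated start sites were marked in both libraries. In the untreated list these were the highest-scoring EPB41 peaks, 28886898 to 28888184 (score 189) at the outer start and 28913796 to 28915558 (162) at the inner one. In the daunorubicin list the peaks at these sites scored 63 and 72, and the highest was the shared peak at an end of the neighbour TMEM200B (29124218 to 29125252, score 178). The other 8 shared peaks of the span had daunorubicin scores of 22 to 116 and untreated scores of 12 to 69. The widest of them, at 28927209 to 28929660, scored 116 and its untreated partner 29. The next by daunorubicin score, at 29046605 to 29048041 and 29032185 to 29033970, scored 100 and 97, and their partners 30 and 39. These scores stand side by side only, since the scale of the lists may differ.

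Of the 9 unshared daunorubicin peaks at EPB41, the strongest lay at 28972114 to 28973839 (1726 bp, score 56), 21155 bp from the nearest untreated peak. A run of 5 others, from 29062581 to 29106375, scored 12 to 44. The untreated library alone had peaks at 28893151 to 28893690 (score 28) and 29094229 to 29094613 (16). EPB41 had, when the lists were cut to equal numbers, 19567 bp against 14530 bp, with 4 unshared peaks in each list.

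GYPC, on chromosome 2 from 126656158 to 126696667, encodes glycophorin C, the sialic acid-rich protein that anchors the junctions. It had the smallest difference of the 8 genes, with 5 daunorubicin and 4 untreated peaks. The promoter peak was the highest-scoring GYPC peak of each list, at 126655655 to 126657564 with daunorubicin (1910 bp, score 123) and 126656014 to 126657350 without it (1337 bp, score 303). Shared peaks below the gene (126643958 to 126645753, score 71) and inside it (126673736 to 126674847, score 87) had partners scored 55 and 44. Only with daunorubicin, peaks were called inside the gene at 126658057 to 126658443 (score 40, 707 bp from an untreated peak) and 126666048 to 126666401 (17). Only without it, a peak of score 16 was called 5243 bp below the gene, at 126650495 to 126650915. With equal numbers of peaks the marked length of GYPC was 5205 bp against 4948 bp.

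GYPB and GYPE lie beside each other on chromosome 4, at 143995188 to 144019380 and 143870864 to 143905559. Both arose from a glycophorin ancestor by duplication. GYPB encodes glycophorin B, which carries the S and s blood group antigens. The upstream sequences are shown because they bear on how the peaks can be read. GYPB (chr4:144019381-144019630) and GYPE (chr4:143905560-143905809), both on the minus strand, read with GATA matches in capitals:
GYPB: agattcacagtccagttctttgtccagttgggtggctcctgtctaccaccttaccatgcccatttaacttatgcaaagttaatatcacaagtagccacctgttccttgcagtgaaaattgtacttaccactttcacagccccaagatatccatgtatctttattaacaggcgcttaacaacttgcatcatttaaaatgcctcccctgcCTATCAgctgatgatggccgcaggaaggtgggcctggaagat
GYPE: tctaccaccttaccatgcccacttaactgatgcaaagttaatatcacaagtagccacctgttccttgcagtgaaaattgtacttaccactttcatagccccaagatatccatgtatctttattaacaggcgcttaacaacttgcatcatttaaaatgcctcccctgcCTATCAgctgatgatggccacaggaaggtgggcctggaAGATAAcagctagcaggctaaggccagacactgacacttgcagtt

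The sequences aligned over 209 bases with 4 differences and no gap, 98.1% identical. In each, the match CTATCA ran by 2 bases into the E-box CAGCTG, a pattern found in 14.0% of all promoters. The GYPB sequence shown stops inside a further AGATAA, so that match is not in capitals there. Before the other GYPB start site AGATAA began at 39 bases, and at GYPE it began at 45 bases. The sources used here do not say how reads that fit both copies were placed, and the part of such reads in the peaks was not tested. Peaks of these genes are therefore uncertain as to the copy.

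GYPB had 12 daunorubicin and 8 untreated peaks, and GYPE had 12 and 6. At both genes the untreated library had 1 broad peak that began just downstream of the start site, 1939 bp wide at GYPB (144017206 to 144019144, score 40) and 1891 bp at GYPE (143903596 to 143905486, score 30). With daunorubicin the GYPB peak was met by 3 separate peaks (scores 35, 37 and 73) and the GYPE peak by 2 (scores 28 and 38). A further untreated peak, 4837 bp above GYPE at 143910396 to 143912482, was also met by 2. These were the 3 split peaks among the 61 untreated peaks of the 8 genes (4.92%, 1.69 to 13.5), beside 4.28% over the whole list, and all 3 lay at the duplicated genes. In the other direction, a daunorubicin peak in the GYPB flank, at 144049877 to 144051053, overlapped 2 untreated peaks. The share of such daunorubicin peaks over the whole list is not given.

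The daunorubicin peak at the GYPE start (143904357 to 143905943) reached across it, while the untreated peak ended 73 bp short. That margin set the promoter call, unlike at EPB42, where the nearest untreated peak lay 34601 bp from the start site. At GYPB the start was 301 bp from a daunorubicin peak and 236 bp from an untreated one.

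**Figure D4:**
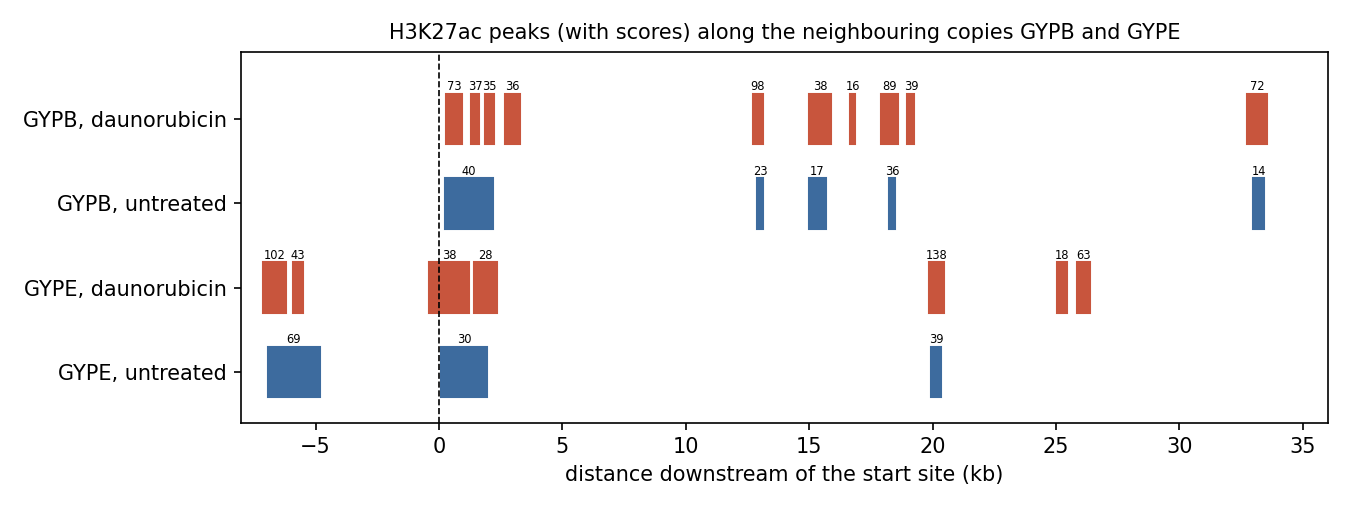
Peaks along GYPB and GYPE by distance (kb) downstream of the start site, with daunorubicin in red, untreated in blue and the score above each peak. Just downstream of the start the single untreated peak stands against 3 daunorubicin peaks at GYPB and 2 at GYPE. Peaks beyond the range of the axis are not drawn.

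Within the gene bodies, the highest-scoring daunorubicin peaks were at 144006267 to 144006675 in GYPB (score 98, untreated partner 23) and 143885116 to 143885691 in GYPE (score 138, partner 39). Peaks called only with daunorubicin were 3 at GYPB, of scores 16 to 39. GYPE had 5, of scores 18 to 63, the strongest at 143879165 to 143879719. A GYPE flank showed how near a miss can be. The daunorubicin peak at 143843446 to 143843809 and the untreated peak at 143843826 to 143844102 were 17 bp apart, and each counted as unshared. With equal numbers of peaks the marked length at GYPE was 6251 bp against 5975 bp, and at GYPB 6880 bp against 4906 bp. With a flank of 10 kb the differences were 966 bp and 1757 bp.

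Other genes of the red cell membrane were read in the same way. Of 10 skeleton partners, 9 were longer with daunorubicin and 1 shorter, near the 87.4% of all marked genes. Their median difference was 1651 bp beside 1312 bp over all marked genes. The largest differences were at ADD1 and ADD3, adducins that cap actin (11040 bp against 6687 bp, and 10916 bp against 7019 bp), TMOD1, a tropomodulin that caps the other end of actin (10128 bp against 6104 bp), and MPP1, a scaffold of the junction (12843 bp against 9913 bp). ADD2, another adducin gene, was the shorter one (2931 bp against 3971 bp) and was chosen after its value was seen. Both libraries marked an end of 8 of the 10 genes, beside 57.6% of all genes.

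Of 16 other red cell membrane proteins, 14 were longer and 2 shorter, again near the 87.4% of all marked genes. Their median difference was 2268 bp beside 1312 bp. The difference between the lists was not tested. RHCE and RHD, which encode Rh antigens and are near copies of each other, had 18981 bp against 9324 bp and 18471 bp against 10719 bp. Their windows share 68197 bp with 5 daunorubicin and 3 untreated peaks, and their peaks are uncertain as to the copy, as at GYPB and GYPE. SLC2A1, the glucose transporter of red cells, had 12062 bp against 7376 bp. RHAG, the partner of the Rh proteins, had 12050 bp against 7811 bp. The shorter ones, chosen after their values were seen, were PIEZO1, a mechanosensitive channel (13118 bp against 13443 bp), and KCNN4, a calcium-gated potassium channel (8953 bp against 9017 bp).

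**Figure D5:**
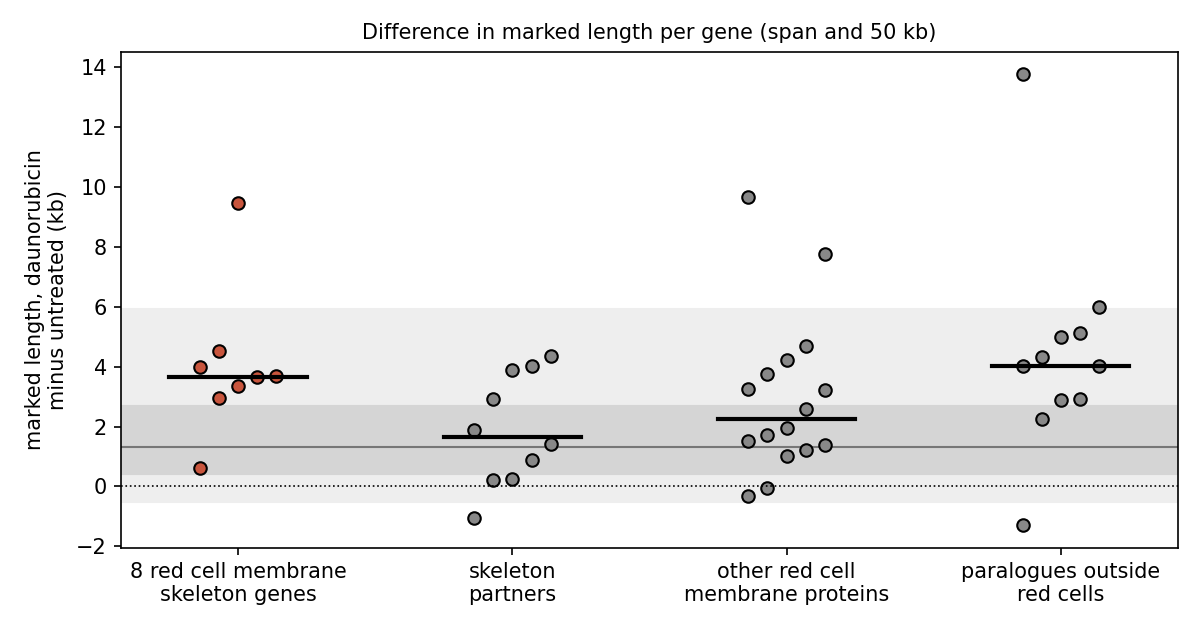
Difference in marked length, daunorubicin minus untreated (kb), for each of the 8 genes (red) and for genes of 3 comparison lists (grey), with the median of each set as a black bar. The dark band holds the middle quartiles of all marked protein-coding genes, the light band their 5th to 95th percentiles and the grey line their median, 1312 bp. Among the 8 genes GYPC lies lowest and EPB41 highest.

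The daunorubicin library had 65118 peaks and the untreated library 38626, a ratio of 1.69, so longer marking was common everywhere. The inputs had 87 and 92 peaks, and none lay in the window of any of the 8 genes. Erythroid markers were marked at an end in 7 of 7 genes with daunorubicin and 6 of 7 without it, and markers of T cells, B cells and monocytes in 4 of 9 in each. Of all protein-coding genes, 57.6% had an end marked in both libraries and 4.91% only with daunorubicin. The erythroid markers HBG1 and HBG2 are neighbours with equal marked lengths (9574 bp against 7382 bp) and are not separate. The marker lists are short, and the difference between them was not tested. CDKN2A and CDKN2B, which K562 is known to lack, had no peak in either library. When the 38626 highest-scoring peaks of each list were used, all 8 genes were still longer with daunorubicin, beside 65.4% of all marked protein-coding genes. The ratio over the merged windows was then 1.26, and the regions found in a single library were 15 for daunorubicin and 11 for untreated cells. The matching region counts over the whole lists are not given for that setting.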

How the data were processed

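The data were 4 ChIP-seq libraries of K562, H3K27ac and input with and without daunorubicin, grouped by their titles. MACS2 2.1.1, Bowtie2 2.3.4.3 and deepTools 3.2.1 are named, per the submitters' processing notes, with both hg19 and hg38. The sequence names in the lists were those of hg38. Their settings, duplicate handling and the placement of reads with several matches are unknown here. Each library has its own peak list, in which the authors deposited a score for each peak, of unstated formula. No read counts were used, so the depth is unknown, and the number of peaks can move with it.

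Gene spans came from a RefSeq table of GRCh38.p14, with no strand. Windows were the span and 50 kb on either side, a gene end was the outer end and 1 kb around it, and an overlap of 1 bp made peaks shared. Coordinates count from 1. Differences are daunorubicin minus untreated. Promoters came from the RefSeq promoter table. Overlap functions were checked against bedtools 2.31.1 on simulated peaks. Python 3.11.15 and Biopython 1.88 were used.

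The 8 genes and the lists were chosen with earlier results of these data known. Named beside the 8 genes were up to 4 of each list with the largest absolute difference. Other score thresholds, peak numbers, flanks and overlaps were tried, with their effect in the closing section. No explanation was tested.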

Additional observations from a re-analysis of the deposited data

How the results depend on the processing

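No paired analysis was possible because each condition had 1 library. The sign of the difference at each of the 8 genes was the same in all 40 recomputed values. Of these, SPTB was smallest, 69 bp with peaks of both lists held to 43 or more (the median score of the untreated list), and GYPC and GYPE had 257 bp and 276 bp with equal numbers of peaks. Over all marked protein-coding genes, 78.6% were longer with this stricter score and 65.4% with equal numbers. The ratio of marked length over the merged windows, 1.54, was 1.69 with the stricter score, 1.26 with equal numbers of peaks, 1.64 and 1.50 with flanks of 10 kb and 100 kb, and 1.53 without GYPB and GYPE (an alternative chosen after seeing the data). The 40 regions called only with daunorubicin were 24 with the stricter score and 15 with equal numbers. The 5 regions called only without it were 1 with the stricter score, 11 with equal numbers, 19 with a reciprocal overlap of 50% and 8 with flanks of 100 kb. The matching counts over the whole lists are not given for these settings, so these region counts have no background beside them. With equal numbers the untreated list is whole and only daunorubicin peaks are removed, down to a score of 33. The 5 genes with an end marked in both libraries were 3 with the stricter score, and the share over all genes at that score is not given. Leaving out GYPB and GYPE, both among the 5, leaves 3 by definition and shows no effect of the processing. No other setting moved a count by over 1.5 times. Removing peaks on input peaks could change no value, since no input peak lay in these windows. The values of that setting among the 40 were therefore fixed in advance. Depth, which is unknown, limits every count.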

Other observations

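Of 11 paralogues of these genes that serve mainly outside red cells, 10 were longer with daunorubicin and 1 shorter, near the 87.4% of all marked genes. Their median difference was 4035 bp beside 3668.5 bp for the 8 genes, but their median window was 241386 bp beside 137603 bp, and a longer window can hold more peaks. EPB41L2, a paralogue of EPB41, had 24413 bp against 10634 bp. Its daunorubicin-only regions numbered 20, and those of EPB41 9. SPTBN1, the widely expressed beta spectrin gene, had 13116 bp against 7131 bp with no peak at an end in either library. ANK2, an ankyrin gene best known from heart and brain, had 7663 bp against 2531 bp, and EPB41L1 had 14778 bp against 9794 bp. SLC4A2, a widely expressed anion exchanger gene, was the shorter one (16953 bp against 18244 bp) and was chosen after its value was seen. The difference between these genes and the red cell genes was not tested.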
